A study of Homo sapiens with 6 samples.

Results

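The 9 genes described here are used as markers of liver progenitor cells and of stem-like cells in liver cancer, and were measured in Huh7 cells that expressed the transcription factor LHX2 and in control cells: PROM1, EPCAM, CD24, CD44, CD47, THY1, ANPEP, SPINK1 and BICC1. They were chosen by symbol, and all 9 had a row among the 28265 genes of the deposited table. The label of surface markers holds for 7 of them. SPINK1 encodes a secreted protein and BICC1 an RNA-binding protein of the cytoplasm.

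Progenitor cells of the liver can give rise to hepatocytes and to cells of the bile ducts, and they carry surface proteins that mature hepatocytes mostly lack. In liver cancer, cells that carry such proteins have been sorted with antibodies and studied for tumour initiation, self-renewal and drug resistance. The proteins differ in what they do: some are adhesion molecules or receptors, some are enzymes, and some signal to phagocytes.

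Huh7 is an established human hepatocellular carcinoma line. The LHX2 cells carried a lentiviral vector that expressed LHX2, a LIM-homeodomain transcription factor, and the control (CTRL) cells carried a control vector in otherwise parental cells. RNA was collected 48 h after transduction, with 3 libraries in each group. The labels give neither the promoter of the vector nor separate cultures for the replicates. The p-values therefore measure library-to-library spread alone, possibly of technical origin, and a single cell line stands for the disease.

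The libraries held 30029313 to 35194438 counts with LHX2 and 32625405 to 39653681 counts with the control vector. LHX2 itself had 2535, 2427 and 3126 counts in the LHX2 libraries, against 1, 2 and 1 in the CTRL libraries, which fits the labels. All 13 hepatocyte-lineage markers were expressed, of which 3 rose, 4 fell and 6 did not pass. ALB, the albumin gene, had 11617 to 12811 CPM with LHX2 and 11796 to 12414 CPM in CTRL cells (CPM, the count relative to a library total scaled by the TMM method for composition). Markers of other cell types were mostly at or near 0. Of 8 endothelial markers 1 was tested (PECAM1, 3.03 CPM with LHX2 and 4.02 CPM in CTRL cells, edgeR adjusted p = 0.024). PECAM1 did not pass without LHX2 replicate 3, CTRL replicate 1 or CTRL replicate 3 (adjusted p = 0.066 to 0.088). Nor did it pass with the replicate number as a block (0.06) or by DESeq2 (0.062). CDH5, KDR, TEK and CLEC4M had no count in any library, and the summed level was 2.77 to 3.22 CPM with LHX2 and 3.75 to 4.31 CPM in CTRL cells. Of 8 leukocyte markers 4 were tested and 2 rose, CD68 and LYZ. CD3E and CD163 had no count and PTPRC reached at most 0.0984 CPM, while the sum was 612 to 679 CPM with LHX2 and 472 to 501 CPM in CTRL cells, nearly all of it from LYZ. Of 9 stromal markers 3 were tested and 2 rose, COL1A2 and LUM, with 1 lower gene when CTRL replicate 3 was left out. DES had no count and DCN at most 0.0307 CPM, and the sum was 51.5 to 58.1 CPM with LHX2 and 24.5 to 26.2 CPM in CTRL cells. COL1A2 averaged 36.8 CPM of it with LHX2 and 9.26 CPM in CTRL cells. The part of these sums in the results below was not tested.

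Of the 9 markers 4 rose and 1 fell in LHX2 cells. PROM1 rose the most, by 65.4%, and EPCAM, BICC1 and CD24 rose by 30.2%, 23.8% and 20.0%. SPINK1 was 27.0% lower. CD44, CD47 and ANPEP did not pass, and THY1 had no read in any library. The test was the edgeR quasi-likelihood test with Benjamini-Hochberg adjustment over all 14533 genes tested, at a threshold of 0.05. Over all tested genes 32.5% changed, 16.6% higher and 15.8% lower, and with 8 tested markers the count of 4 higher and 1 lower is a description of these genes and not of a set. The groups did not overlap in 5 of the 8 tested markers, against 44.9% of all tested genes. The median log2 fold change was 0.21 over the 8 markers and 0.011 over all tested genes.

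**Figure D1:**
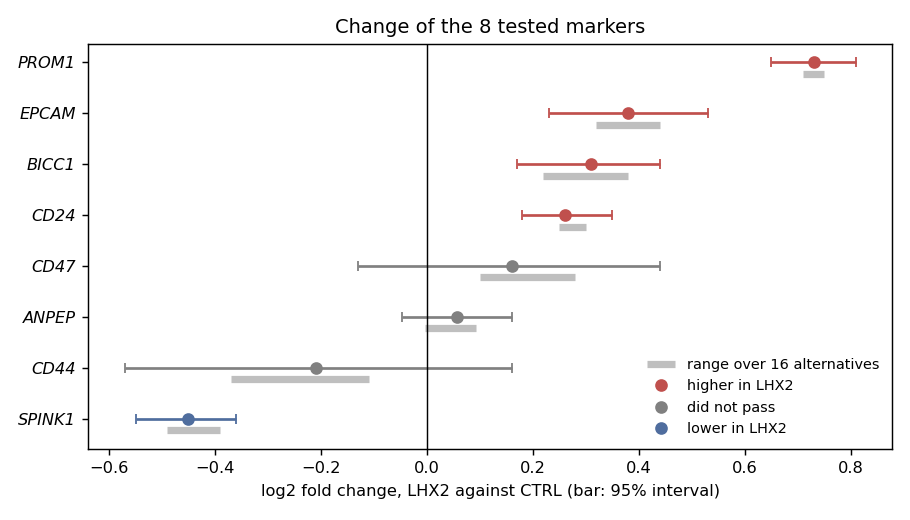
Log2 fold change, LHX2 against CTRL, of the 8 tested markers (x axis) with the 95% interval of the fit (thin bar) and the range of the value over the 16 alternative analyses (grey bar). The intervals of PROM1, EPCAM, BICC1 and CD24 lie above 0 and that of SPINK1 below 0, while those of CD47, ANPEP and CD44 include 0.

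PROM1 encodes prominin-1 (CD133), a glycoprotein that crosses the membrane several times and sits in protrusions of the cell surface. The gene lies on chromosome 4 from 15968228 to 16084023 of GRCh38, on the minus strand. RefSeq places its transcript starts at 4 windows of the promoter table, and reads counted per gene cannot tell which start was used. The windows of the outermost and the innermost start are shown because PROM1 had the largest change and these starts differ in their number of CpG dinucleotides. They hold the 250 bases before each start (RefSeq, GRCh38.p14, minus strand, 5′ to 3′). Capitals mark CpG dinucleotides in the outer window (chr4:16084024-16084273), and in the inner window (chr4:16076119-16076368) they mark a match to the AP-1 motif TGANTCA and a match to the TCF motif CTTTGAT.
PROM1 outer start: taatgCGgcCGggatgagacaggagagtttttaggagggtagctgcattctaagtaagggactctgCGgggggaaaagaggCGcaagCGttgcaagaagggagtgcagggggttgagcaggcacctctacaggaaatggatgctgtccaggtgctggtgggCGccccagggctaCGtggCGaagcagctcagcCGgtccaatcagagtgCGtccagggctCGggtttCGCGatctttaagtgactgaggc
PROM1 inner start: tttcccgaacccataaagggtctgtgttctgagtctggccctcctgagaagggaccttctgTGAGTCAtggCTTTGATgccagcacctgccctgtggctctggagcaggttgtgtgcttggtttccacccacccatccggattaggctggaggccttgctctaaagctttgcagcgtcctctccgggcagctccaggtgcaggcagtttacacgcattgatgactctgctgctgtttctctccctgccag
The outer window held 13 CpG dinucleotides at 58.8% GC and the inner one 5 at 56.8% GC, where the median of 34943 promoter windows was 11 CpG and 58.0% GC. The windows between them, not shown, were richer, with 26 CpG at 68.0% GC and 17 CpG at 68.8% GC.

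PROM1 stood at 259, 257 and 251 CPM in the LHX2 libraries, against 151, 158 and 154 CPM in the CTRL libraries. The lowest LHX2 library lay far above the highest CTRL library, and the libraries of a group differed little (coefficient of variation 1.69% with LHX2 and 2.16% in CTRL cells). This gave a log2 fold change of 0.73 ± 0.037 (SE), a 1.65-fold rise with a 95% interval of 1.57 to 1.75 (edgeR adjusted p = 2.0e-09, higher in 3 of 3 libraries). Among all tested genes 5.63% had a larger change in either direction. PROM1 is annotated with 166 exonic bases shared with FGFBP2 on the same strand, which had 0 to 4 counts per library, and how reads in the shared bases were counted is not known here. In RNA from a whole culture, more cells with PROM1 and more PROM1 RNA per cell cannot be told apart, and this holds for the other markers too. Of 7 tested genes for its paralogue and for other proteins of membrane protrusions, 2 rose and 5 did not pass (median log2 fold change 0.086). VIL1, which encodes the microvillus protein villin, rose 1.70-fold to 203 CPM with LHX2, against 120 CPM in CTRL cells (edgeR adjusted p = 5.5e-09), and TTYH3 rose 1.38-fold (adjusted p = 8.7e-04).

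**Figure D2:**
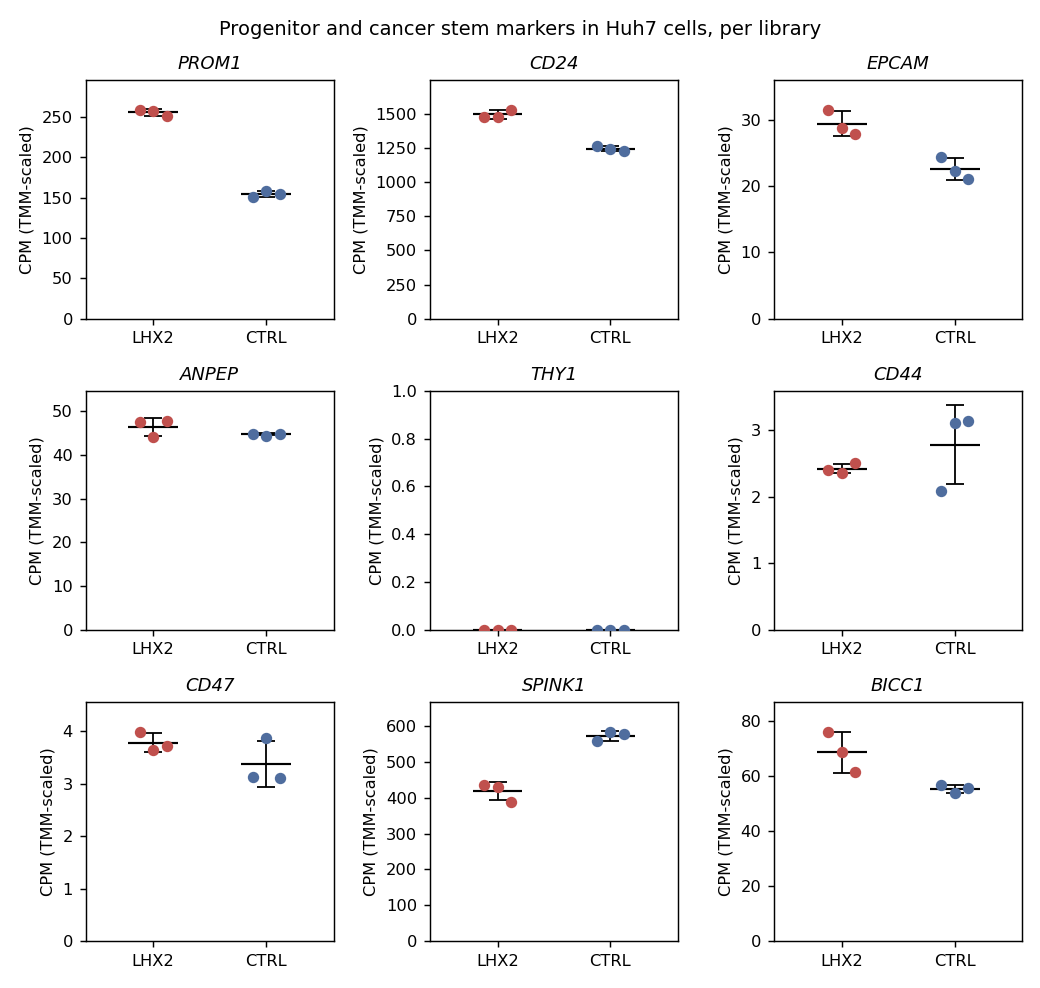
Level of each marker in CPM (TMM-scaled, linear axis from 0) in the 3 LHX2 and the 3 CTRL libraries. Points are libraries, and bars give the mean ± SD (n = 3). PROM1, CD24, EPCAM and BICC1 are higher in all LHX2 libraries, SPINK1 is lower in all of them, the groups overlap for ANPEP, CD44 and CD47, and THY1 is at 0.

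EPCAM encodes an adhesion glycoprotein of epithelial cells that is found on hepatoblasts and duct cells and is lost as hepatocytes mature (chromosome 2, 47369311 to 47387020). It had 31.5, 28.8 and 27.8 CPM in the LHX2 libraries, against 24.3, 22.2 and 21.1 CPM in the CTRL libraries. The groups did not overlap, although the gap between the lowest LHX2 and the highest CTRL library was about as wide as the spread within a group. The difference was 0.38 on the log2 scale, ± 0.071 (SE), a rise of 1.3-fold with a 95% interval of 1.17 to 1.45 (edgeR adjusted p = 8.0e-04). Of 11 tested genes for partners and proteases of the EPCAM protein, 1 rose, 2 fell and 8 did not pass (median -0.039). TSPAN8, a tetraspanin that binds EPCAM, fell to 9.88 CPM, against 18.1 CPM in CTRL cells (log2 fold change -0.87, adjusted p = 4.5e-07), and CDH1, the E-cadherin gene, was lower by the same test (-0.35, adjusted p = 7.9e-05). SPINT1, an inhibitor of membrane serine proteases, rose 1.49-fold at a low level of 3.59 CPM with LHX2 and 2.41 CPM in CTRL cells (adjusted p = 7.6e-03).

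CD24 encodes a small, heavily glycosylated protein held in the membrane by a lipid anchor, which is bound by an inhibitory receptor of macrophages (chromosome 6, 106969831 to 106976855). It had the highest mean level per transcript length of the 9 markers, although in CTRL cells its range overlapped that of SPINK1. CD24 had 1479, 1478 and 1531 CPM in the LHX2 libraries, against 1265, 1243 and 1230 CPM in the CTRL libraries. The groups were well apart, with a within-group variation of 2.03% for LHX2 and 1.41% for CTRL. On the log2 scale CD24 rose by 0.26 ± 0.038 (SE), or 1.2-fold with an interval of 1.13 to 1.27 (edgeR adjusted p = 1.0e-04). RefSeq lists 5 pseudogene copies of CD24, none of which had a row in the table, so its value is uncertain to the extent that reads could be placed on a copy.

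CD47 encodes the surface protein that tells macrophages, through the receptor SIRPA, not to engulf the cell (chromosome 3, 108043091 to 108091031). It was low, with 3.99, 3.64 and 3.72 CPM in the LHX2 libraries, against 3.13, 3.88 and 3.11 CPM in the CTRL libraries. CTRL replicate 2 lay within the range of the LHX2 libraries, and the groups overlapped. A log2 fold change of 0.16 ± 0.13 (SE) did not pass (edgeR adjusted p = 0.40), with an interval of the fold from 0.916 to 1.36, so that a rise like that of CD24 cannot be told apart from none at this depth of 101 to 152 counts. Of 8 tested genes for partners of CD47 and CD24 and for related signals to phagocytes, 1 rose, 1 fell and 6 did not pass (median 0.02). LRP1, a scavenger receptor, was 1.40-fold higher (adjusted p = 1.5e-04), and its log2 value of 0.49 was 0.20 after correction for transcript length and GC (adjusted p = 9.6e-03). SIRPA had 12.4 CPM with LHX2 and 14.5 CPM in CTRL cells and a log2 fold change of -0.23 (adjusted p = 0.038). SIRPA did not pass without LHX2 replicate 2, LHX2 replicate 3, CTRL replicate 1 or CTRL replicate 3 (adjusted p = 0.082, 0.098, 0.11 and 0.12), with the replicate number as a block (0.079) or by DESeq2 (0.053). CALR, which encodes the chaperone calreticulin, differed by -0.0094 ± 0.042 (SE).

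CD44 encodes the receptor for hyaluronan, a glycan of the matrix, and is spliced into many isoforms (chromosome 11, 35139171 to 35232402). RefSeq lists 44 transcripts for it, and the counts per gene do not separate the standard form from the variant forms. The antisense gene CD44-AS1 shares 84 exonic bases with CD44 and has no row in the table. CD44 had the lowest mean level per transcript length of the 8 expressed markers, although in CTRL cells its range overlapped that of CD47. It had 2.40, 2.36 and 2.50 CPM in the LHX2 libraries, against 2.09, 3.11 and 3.14 CPM in the CTRL libraries. The CTRL libraries bracketed the LHX2 libraries, since CTRL replicate 1 was below all others and CTRL replicates 2 and 3 were above them. The variation among CTRL libraries was 21.5%, where counting alone gives 10.1%. CD44's log2 fold change of -0.21 ± 0.17 (SE) did not pass (edgeR adjusted p = 0.39, fold interval 0.675 to 1.12), nor did the value of -0.37 without CTRL replicate 1 (adjusted p = 0.10). Among 14 tested genes for CD44 ligands, hyaluronan metabolism, cytoskeletal linkers and splicing regulators, 3 rose, 1 fell and 10 did not pass (median 0.00086). VCAN, a proteoglycan that binds hyaluronan, stood at 679 CPM with LHX2 and 138 CPM in CTRL cells (4.93-fold higher, adjusted p = 5.8e-14). The linkers of CD44 to actin moved in opposite directions, with EZR (ezrin) 1.15-fold higher (adjusted p = 1.2e-03) and RDX (radixin) 1.14-fold lower (adjusted p = 4.5e-03), and MSN (moesin) had no count. MMP14, a protease that can cut CD44 at the cell surface, rose 1.25-fold (adjusted p = 3.3e-04). The list had 2 lower genes without LHX2 replicate 2, without CTRL replicate 1 or with RLE factors, and 3 after correction for length and GC. CEMIP2, a surface protein linked to hyaluronan breakdown, differed by 0.064 ± 0.037 (SE).

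ANPEP encodes aminopeptidase N (CD13), an enzyme on the cell surface that trims peptides and that marks slowly cycling cells in liver cancer (chromosome 15, 89784895 to 89814852). It had 47.4, 44.1 and 47.8 CPM in the LHX2 libraries, against 44.8, 44.4 and 44.8 CPM in the CTRL libraries. LHX2 replicate 2 lay below all CTRL libraries and the other LHX2 libraries above them. Its log2 fold change was 0.056 ± 0.048 (SE) and did not pass (edgeR adjusted p = 0.41). The fold had an interval of 0.968 to 1.12, whose upper bound lies below the rises fitted for PROM1, EPCAM, CD24 and BICC1. Of 9 tested related aminopeptidases and surface peptidases, 1 rose, 2 fell and 6 did not pass (median -0.041). DPP4 (CD26), another surface peptidase, stood at 191 CPM with LHX2 and 118 CPM in CTRL cells, a 1.63-fold rise (adjusted p = 7.9e-09), and LVRN fell at a low level (2.50 CPM with LHX2, 4.00 CPM in CTRL cells, adjusted p = 9.9e-04). NPEPPS had a log2 fold change of -0.10 (adjusted p = 0.049) and did not pass when any of the 6 libraries was left out (adjusted p = 0.064 to 0.16), which leaves 1 lower gene.

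THY1 encodes CD90, a protein with a lipid anchor that is carried by many mesenchymal cells (chromosome 11, 119415476 to 119424985). It had 0 counts in each of the 6 libraries. The gene AP003396.5 on the opposite strand shares 632 exonic bases with THY1 and has no row in the table. How reads in the shared bases were counted is not known here. A count of 0 allows a level of up to 0.0852 to 0.0999 CPM in the LHX2 libraries and 0.0757 to 0.0920 CPM in the CTRL libraries (3 counts per library, counting error only), and no comparison was possible. Of 8 tested genes for integrins that bind CD90 and for proteins near it at the membrane, 6 rose and 2 did not pass (median 0.47). Over all tested genes 16.6% were higher. This list was chosen with earlier results of these data known, so the count describes these genes and not a set. ITGAV, the alpha-V integrin, stood at 402 CPM with LHX2 and 249 CPM in CTRL cells (1.61-fold higher, edgeR adjusted p = 4.5e-09), CAV1 (caveolin-1) rose 2.32-fold (adjusted p = 3.5e-08), the kinase gene FYN 1.69-fold (adjusted p = 1.2e-05) and the proteoglycan gene SDC4 1.28-fold (adjusted p = 2.7e-05). ITGB3, an integrin beta chain, was among the 6 (log2 fold change 0.59, adjusted p = 0.022) but did not pass without LHX2 replicate 3, CTRL replicate 1 or CTRL replicate 2 (adjusted p = 0.11, 0.083 and 0.083) or by DESeq2 (0.057), which left 5 higher genes. The list had 1 lower gene without LHX2 replicate 3 and after correction for length and GC.

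SPINK1 encodes a small secreted inhibitor of trypsin that is also released by some liver tumours (chromosome 5, 147824582 to 147839196, minus strand). The promoter table held 1 window for SPINK1, the 250 bases before a start inside the span of the gene (chr5:147831672-147831921, RefSeq, GRCh38.p14, minus strand, 5′ to 3′). No window before the outer end of the gene was held. The window is shown beside those of PROM1 because SPINK1 was the marker that fell. It had no CpG dinucleotide, which capitals would mark.
SPINK1: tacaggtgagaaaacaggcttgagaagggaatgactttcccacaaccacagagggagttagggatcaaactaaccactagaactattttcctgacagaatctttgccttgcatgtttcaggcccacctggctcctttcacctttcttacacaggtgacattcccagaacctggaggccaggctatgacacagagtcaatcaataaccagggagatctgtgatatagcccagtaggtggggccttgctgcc
Its GC content was 48.8%, the lowest of the 12 windows held for 6 of the markers, of which that of CD47 was the richest with 39 CpG dinucleotides and 79.6% GC.

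SPINK1 had 436, 430 and 389 CPM in the LHX2 libraries, against 558, 584 and 579 CPM in the CTRL libraries. All LHX2 libraries were below all CTRL libraries, with LHX2 replicate 3 the lowest. Its log2 fold change was -0.45 ± 0.046 (SE), 1.37-fold lower (edgeR adjusted p = 3.2e-06), and 13.3% of the tested genes had a larger change in either direction. The trypsin genes PRSS1 and PRSS2 had no count, and of 4 tested genes among trypsins, SPINK relatives and EGFR, the receptor that SPINK1 can bind, 1 rose, 1 fell and 2 did not pass (median -0.14). PRSS3 was at 0.296 CPM with LHX2 and 0.658 CPM in CTRL cells (adjusted p = 0.014), and EGFR had a log2 fold change of 0.15 (adjusted p = 0.013). Both calls depended on which libraries were included. PRSS3 did not pass without LHX2 replicate 3 or CTRL replicate 2 (adjusted p = 0.067 and 0.060). With all libraries it did not pass by DESeq2 (0.051), and it had only 7 to 28 counts per library. EGFR did not pass without LHX2 replicate 2, CTRL replicate 1 or CTRL replicate 2 (adjusted p = 0.059, 0.052 and 0.084). Removal of the length and GC trend left EGFR at 0.020 (adjusted p = 0.70).

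BICC1 encodes an RNA-binding protein that represses translation and is needed in mice for normal kidney tubules (chromosome 10, 58512220 to 58831435). It had 76.2, 68.7 and 61.4 CPM in the LHX2 libraries, against 56.7, 53.9 and 55.9 CPM in the CTRL libraries. All LHX2 libraries were higher, but they varied by 10.7%, where counting alone gives 2.13%, and LHX2 replicate 3 lay close to the CTRL libraries. The rise was 0.31 on the log2 scale, ± 0.064 (SE), 1.24-fold with an interval of 1.13 to 1.36 (edgeR adjusted p = 1.7e-03). It was 0.22 without LHX2 replicate 1 and 0.38 without LHX2 replicate 3 and passed in both cases (adjusted p = 8.7e-03 and 3.0e-05). Of 12 tested genes for BICC1 partners and for polycystic or nephronophthisis proteins, 0 were higher and 0 lower by the edgeR test, by DESeq2 and by limma-voom, with 1 higher and 3 lower at an unadjusted edgeR p under 0.05 (median log2 fold change -0.0099). Leaving out LHX2 replicate 1 or 3 gave 1 higher gene, leaving out CTRL replicate 1 gave 1 higher and 1 lower, no filter on low counts gave 1 lower, and correction for length and GC gave 3 lower. CNOT1, the scaffold of the deadenylase complex that BICC1 recruits, differed by -0.11 ± 0.044 (SE, adjusted p = 0.065).

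Levels of different genes were compared per kilobase of the longest annotated transcript (GENCODE 29), so a gene expressed mainly as a shorter transcript has a higher true level per length. In the LHX2 libraries CD24 led with 588 to 609 CPM per kb, followed by SPINK1 (328 to 367) and PROM1 (57.6 to 59.6). EPCAM (16.1 to 18.3), ANPEP (12 to 13) and BICC1 (11.2 to 13.9) formed a middle tier, in which ANPEP and BICC1 overlapped. CD47 (0.536 to 0.588) and CD44 (0.412 to 0.436) were lowest. The order of the means was the same in the CTRL libraries, but the neighbours that overlapped were others. CD24 (490 to 503 CPM per kb) and SPINK1 (469 to 492) overlapped there, as did CD47 (0.458 to 0.570) and CD44 (0.364 to 0.548), while ANPEP (12.1 to 12.2) lay above BICC1 (9.85 to 10.4).

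**Figure D3:**
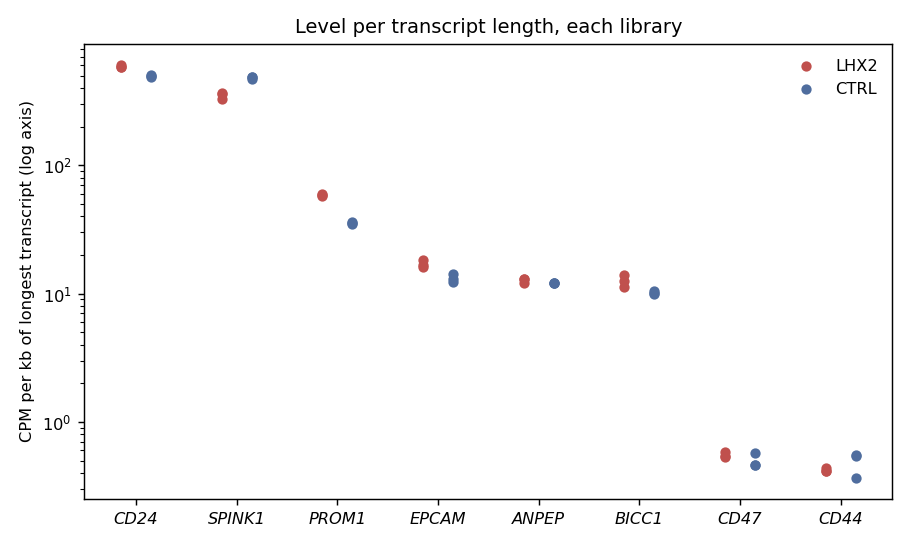
Level of the 8 expressed markers in CPM per kb of the longest transcript (log axis), each point a library, LHX2 at the left and CTRL at the right of each gene. CD24 and SPINK1 are close in the CTRL libraries and apart in the LHX2 libraries, and CD47 and CD44 lie under 1 CPM per kb.

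Ratios of raw counts within a library need no scaling between libraries, and they show how the markers stood to each other, not which of a pair changed. There were 0.594, 0.597 and 0.644 PROM1 reads per SPINK1 read in the LHX2 libraries, against 0.271, 0.270 and 0.266 in the CTRL libraries. Set against ANPEP, PROM1 gave 5.47, 5.83 and 5.24 reads per read with LHX2 and 3.38, 3.55 and 3.44 in CTRL cells. SPINK1 gave 9.22, 9.77 and 8.14 reads per ANPEP read with LHX2 and 12.5, 13.1 and 12.9 in CTRL cells. EPCAM gave 0.665, 0.655 and 0.581 with LHX2 and 0.544, 0.499 and 0.471 in CTRL cells. In these 4 ratios the groups did not overlap. Each of them holds a marker that rose or fell in the edgeR test, so they add no separate result.

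Other markers of hepatic progenitors and of stem-like cells in liver cancer moved in both directions. Of 28 genes, 20 were tested, 5 rose, 7 fell and 8 did not pass, with a median log2 fold change of -0.054. ALDH1A1, among the 7, had a log2 fold change of -0.11 (edgeR adjusted p = 0.045). It did not pass without LHX2 replicate 2 or any of the CTRL libraries (adjusted p = 0.079 to 0.17). Nor did it pass with library totals alone (0.079), the replicate number as a block (0.15) or correction for length and GC (0.33). Each of these left 6 lower genes. KRT19, a keratin of bile duct and progenitor cells, rose to 28.8 CPM, against 20.0 CPM in CTRL cells (edgeR adjusted p = 1.5e-04). The adhesion gene ALCAM (CD166) fell to 151 CPM with LHX2, against 234 CPM in CTRL cells (adjusted p = 1.6e-08), the drug exporter gene ABCG2 was 1.59-fold lower (adjusted p = 2.8e-05), and LGR5, a receptor for R-spondins, had 17.5 CPM with LHX2 and 34.2 CPM in CTRL cells (adjusted p = 2.1e-08). AFP, the alpha-fetoprotein gene, and SOX9 did not pass, at -0.10 ± 0.050 and -0.041 ± 0.038 (SE). KRT7, NCAM1 and KIT had no count in any library. Of 14 biliary genes 8 were tested, of which 4 rose, 1 fell and 3 did not pass (median 0.14). KRT19, GGT1 (1.39-fold, adjusted p = 6.7e-04) and TFF3 (2.24 CPM with LHX2, 0.926 CPM in CTRL cells, adjusted p = 7.9e-04) rose, and ELF3, an epithelial transcription factor gene, fell by 0.35 on the log2 scale (adjusted p = 3.3e-03). Without LHX2 replicate 3 or CTRL replicate 2 the biliary list had 2 lower genes.

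**Figure D4:**
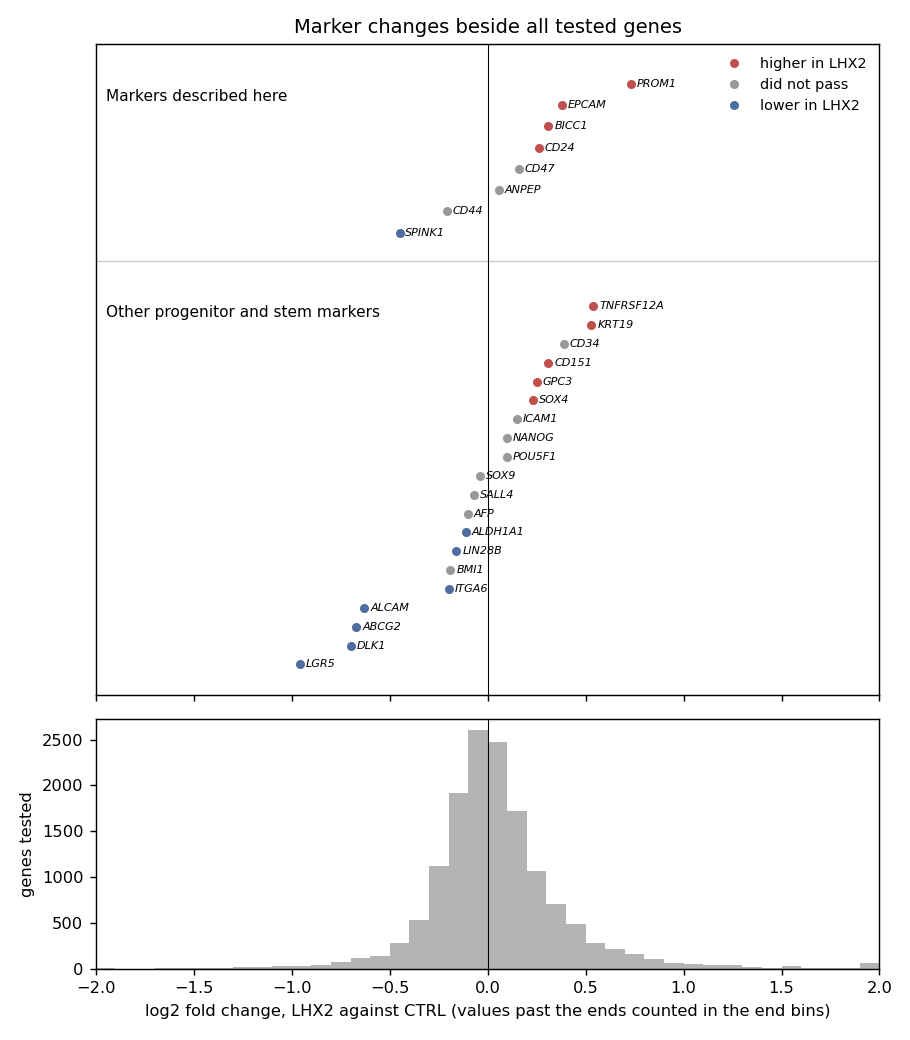
Upper panel: log2 fold change, LHX2 against CTRL, of the 8 tested markers and of 20 other tested progenitor and stem markers. Lower panel: number of all 14533 tested genes by log2 fold change. PROM1 at 0.73 and LGR5 at -0.96 lie in the flanks of the distribution, and CD24, CD47 and ANPEP lie nearer its centre.

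Genes with a pattern over the 6 libraries most like that of the 3 markers with the smallest adjusted p were sought among 10377 genes averaging 5 CPM or more, by Pearson correlation of log2 CPM. The 6 points of each gene fall into the 2 groups and share their libraries, so that any gene with a clean group difference correlates highly. For PROM1 these were MET (r = 0.9997), USP6NL (0.9996) and STK39 (0.9996), among 867 genes with an r of at least 0.95. For SPINK1 they were HULC (0.9987), NOLC1 (0.9986) and ALDH1A1 (0.9983), among 748 such genes, although the size of the change differed, with log2 fold changes of -0.73 for HULC and -0.11 for ALDH1A1. For CD24 they were NR4A2 (0.9982), PHTF1 (0.9981) and PHF21A (0.9980), among 701.

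Promoter windows of 6 of the 9 markers, 12 in all, were searched on both strands for short motifs. The homeodomain motifs TAATTA and TAATTG had no match in any of them, where 4.35% and 6.72% of 34943 windows of 250 bases hold one. The TCF motif CTTTGAT (2.27% of all windows) and the AP-1 motif TGANTCA (6.59%) had a match in the inner window of PROM1 printed above, at positions -179 and -189 from that start. The TCF motif CTTTGAA (3.81%) and the TATA motif TATAAA (10.8%) had none. The matches say nothing on binding, and the absence of a match covers only these letters in these windows.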

How the data were processed

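The authors deposited a table of raw read counts, with a row per gene and a column per library. The submitters' processing notes list GRCh38/hg38, featureCounts 2.0.0, TopHat2 2.1.1, Bowtie2 2.3.5.1, SAMtools 1.9, FastQC and bcl2fastq 2.20. Library preparation kept strand (TruSeq mRNA kit, per the labels' protocols). The annotation, the strand setting and the treatment of reads that match several genes were not given in the sources used here. A control column with an extra digit in its name was read as replicate 1.

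Genes with low counts were removed by filterByExpr (minimum count 10, minimum total 15, minimum proportion 0.7). After TMM scaling, LHX2 and CTRL libraries were tested with edgeR's quasi-likelihood method (edgeR 4.0.16 in R 4.3.3), with no covariate and Benjamini-Hochberg adjustment over all 14533 genes. Standard errors are the log2 fold change over the square root of the F statistic. The procedure was tested on simulated data. The 16 alternatives included DESeq2 1.42.0 and limma-voom (limma 3.58.1). The markers and 14 further gene lists were chosen with earlier results of these data known. Named were the 9 markers, LHX2, up to 4 genes per list with the smallest adjusted p under 0.05, some at 50 CPM or more that did not pass, and the genes most like 3 markers. ITGB3, and genes with no or few counts such as MSN, were named after their values were seen. Lengths came from the longest GENCODE 29 transcript, with values for 14242 of the tested genes. Replicates differed by more than sampling noise (chi-square per degree of freedom 2.32 to 8.27). Limits from a count of 0 cover counting error only, because these reads carry no molecular identifiers.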

Additional observations from a re-analysis of the deposited data

How the results depend on the processing

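The calls of the 8 tested markers, 4 higher, 1 lower and 3 not passing, were the same under each of the 16 alternatives (other or no scaling factors, totals without LHX2, 2 other filters, the replicate number as a block, 1 library fewer, DESeq2 or limma-voom, and correction for length and GC). Log2 fold changes ran from 0.71 to 0.75 for PROM1, 0.32 to 0.44 for EPCAM, 0.25 to 0.30 for CD24, 0.22 to 0.38 for BICC1 and -0.49 to -0.39 for SPINK1. The values of CD47 ran from 0.10 to 0.28 and those of CD44 from -0.37 to -0.11. ANPEP changed sign, to -0.0042, after correction for length and GC, and the cause was not tested. Leaving out single libraries gave 3549 to 4567 changed genes in all, against 4716. Same-numbered libraries did not deviate together (correlations of -0.0555, -0.0735 and -0.195), where other pairs ran from -0.0717 to 0.133. With so few libraries this cannot show whether same-numbered libraries shared a culture or a day, which the labels do not state. With the replicate block 3768 genes changed, and PROM1, EPCAM, CD24, BICC1 and SPINK1 still passed, as 4 higher and 1 lower. Of 448 counts of the other lists under alternatives 52 moved by over 1.5 times, all but 2 of them by a single gene. CD44 and CD47 had 68 to 152 counts per library, and the spread of CTRL libraries (21.5% and 12.9%) was above that from counting alone (10.1% and 9.19%). THY1 could not be compared.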
